A study of Mus musculus with 6 samples.

Results

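The cells described here are Mpo granulocyte-monocyte progenitors found among single cells of mouse rhabdoid tumors. They were chosen by their own RNA: a cell was counted as a progenitor when it held at least 3 unique molecular identifiers (UMIs, each standing for 1 captured RNA molecule) of Mpo and at least 3 of Prtn3, Elane and Ctsg together, and the rule gave 768 of the 22163 kept cells. Kept cells had 200 or more genes detected and no more than 25% of UMIs from mitochondrial genes. The 4 genes of the rule therefore describe the cells and were not tested. The study sequenced live cells of dissociated tumors by the 10x Chromium 3′ method to learn which cells such tumors arise from, and the 6 tumors analysed here, 1 per mouse, are the part of its samples in this series. Rhabdoid tumors are childhood cancers that lose Smarcb1, a subunit of the SWI/SNF chromatin remodeler. All 6 mice carried floxed Smarcb1 alleles and a tamoxifen-inducible Cre, and received tamoxifen before birth through a single dose of 50 mg/kg given to the mother at embryonic day 6.5, so no group was left uninduced. The MYC spinal group held mice 1, 2 and 3, aged 19, 26 and 17 weeks, all labelled Rosa26-cre (Cre from a ubiquitously active locus). The extracranial group (eRT) held mouse 1, a Rosa26-cre animal of 17 weeks with a tumor in a gland, and mice 2 and 3, Sox2-cre animals of 29 and 22 weeks with tumors in the jaw and the shoulder. Ages are those of the labels, and for eRT mouse 1 the study's sample list gives another age. Tumor site, Cre line and subtype overlap in this design and cannot be told apart. Smarcb1 gave 49 and 2 UMIs in the progenitors of MYC spinal mice 2 and 3, but where its 3′ tags lie relative to the deleted part was not known, so this count checks no label.

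The tumors held between 1469 and 6740 kept cells and between 3841706 and 26184224 UMIs. No 2 of the 6 tables shared a cell with an identical whole profile (0 over 15 pairs of tables). The barcodes had been replaced by running numbers, so shared barcodes could not be counted. Scrublet, a program that scores likely doublets, called 33 of 22163 cells, or 0.149%, a share so low that its calls were not used. The study's sort had gated doublets out before capture, which says nothing of cells that came to share a droplet afterwards. The shares and the counts of called genes below were therefore also computed without the 843 cells of the highest scores, of which 45 were progenitors, all from spinal mouse 2.

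Granulocyte-monocyte progenitors are bone marrow cells that give rise to neutrophils and to monocytes. At the promyelocyte stage they fill their first, azurophil granules with myeloperoxidase, the heme enzyme encoded by Mpo that makes hypochlorous acid, and with the serine proteases proteinase 3, neutrophil elastase and cathepsin G, encoded by Prtn3, Elane and Ctsg. Later stages switch these genes off and make secondary granule proteins such as lactoferrin (Ltf) and cathelicidin (Camp) under the transcription factor Cebpe. The monocyte branch keeps Irf8 and Klf4 and turns on Ccr2 and Csf1r.

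Progenitors were found in 2 of the 6 tumors. Spinal mouse 2 held 740 among 5749 kept cells, a share of 12.9% (exact 95% binomial interval 12.0 to 13.8), and spinal mouse 3 held 28 among 6740, a share of 0.415% (0.276 to 0.600). The intervals cover counting error only. Mpo is not listed at all in the tables of MYC spinal mouse 1 and of eRT mice 1, 2 and 3. A table lists a gene only when at least 3 of its cells carry it, so at most 2 cells in each of those tumors could have held an Mpo UMI, a share of at most 0.136%, 0.0933%, 0.0979% and 0.0498%. Spinal mouse 2 alone supplied 96.4% of all progenitors. As a share of cells with at least 3 UMIs of the pan-leukocyte genes Ptprc, Laptm5, Coro1a and Arhgdib, the progenitors made up 14.3% in spinal mouse 2 and 0.664% in spinal mouse 3, a count that takes in 276 of the 740 and 22 of the 28 progenitors.

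**Figure D1:**
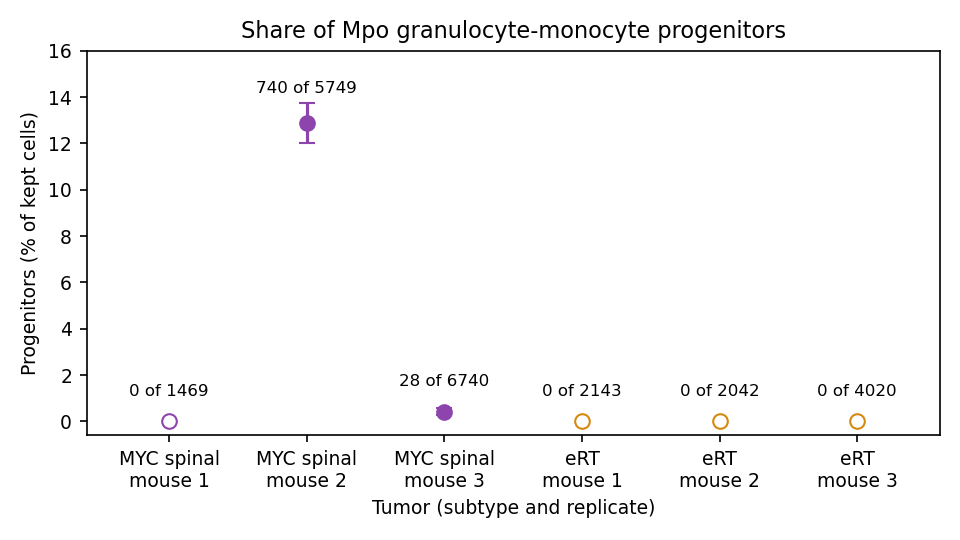
Share of progenitors among kept cells, in percent, for each of the 6 tumors, with exact 95% binomial intervals and the number of progenitors and kept cells above each point (purple, MYC spinal; orange, eRT). Open circles mark tumors whose table does not list Mpo. MYC spinal mouse 2 stands at 12.9%, MYC spinal mouse 3 at 0.415%, and the other 4 tumors at 0.

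The mean share was 4.43% ± 7.31 (SD, n = 3) in MYC spinal and 0 in each of the 3 eRT tumors. The difference of -4.43 percentage points, eRT minus MYC spinal, was smaller than the SD of the MYC spinal tumors, and a two-sided exact permutation test of the 6 tumor shares gave p = 0.4, where 0.1 is the smallest value that 3 against 3 tumors allow. Spinal mouse 2 decided it, and without that mouse the difference was -0.21 points. When every cell was thinned to 1000 UMIs and the 3157 shallower kept cells of spinal mouse 2 were left out, the share was 15.8% (409 of 2592 cells) in spinal mouse 2 and 0.297% (20 of 6740) in spinal mouse 3. With only 2 tumors holding progenitors, both MYC spinal, the planned comparison of progenitors between the subtypes could not be made. The comparisons that follow set the progenitors against other cells of the same mouse, in 2 pairs. Their p-values and standard errors (SE) rest on a spread that edgeR pools across genes. They do not measure how well the 2 mice agree on a single gene, and they speak for no mice beyond these.

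Inside the progenitors the granule genes were abundant but uneven from cell to cell. Mpo ran from 3 to 36 UMIs per cell in spinal mouse 2 with a median of 6, and from 3 to 29 in spinal mouse 3 with a median of 7. Elane had medians of 9 and 24 UMIs per cell in the 2 mice, Prtn3 6 and 16, and Ctsg 2 and 6. All 4 genes were detected together in 596 of the 740 progenitors of spinal mouse 2 and in 27 of the 28 of spinal mouse 3. The 4 genes supplied a median of 1.42% of a progenitor's UMIs in spinal mouse 2 and 2.54% in spinal mouse 3. T cells, gated by at least 2 UMIs of the T-cell receptor complex genes, should lack Mpo. They held it in 3 of 62 cells of spinal mouse 2 and in 0 of 188 of spinal mouse 3, which allows a share of up to 1.60% of cells with such a UMI, at median depths of 677 and 2402 UMIs against 1765.5 and 2339 in the progenitors. No T cell held more than 2 Mpo UMIs. The proteases were found in T cells as well, Elane in 8 of 62 (12.9%, 165 CPM), Prtn3 in 5 and Ctsg in 3 cells of spinal mouse 2, and in spinal mouse 3 Prtn3 in 1 of 188 and Elane and Ctsg in 0. CPM is a gene's UMIs scaled to a total of 1000000 UMIs.

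The rule cut through a gradient of Mpo. In spinal mouse 2, 107 progenitors stood just inside the rule with exactly 3 Mpo UMIs, and 97 cells stood just outside with 2 Mpo UMIs and enough of the proteases. Ms4a3 measured 495 CPM just inside and 498 just outside, Myb 321 and 205, and Camp 4853 and 9154. Among cells with enough of the proteases Camp stood at 11374 CPM where Mpo had 0 UMIs and at 1734 where it had at least 10, so the cells left out for fewer Mpo UMIs held more Camp. In spinal mouse 3, 3 progenitors had exactly 3 Mpo UMIs and 6 cells had 2. A further 32 cells of spinal mouse 2 had 3 or more Mpo UMIs but at most 2 of the proteases, and spinal mouse 3 had 0 such cells.

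**Figure D2:**
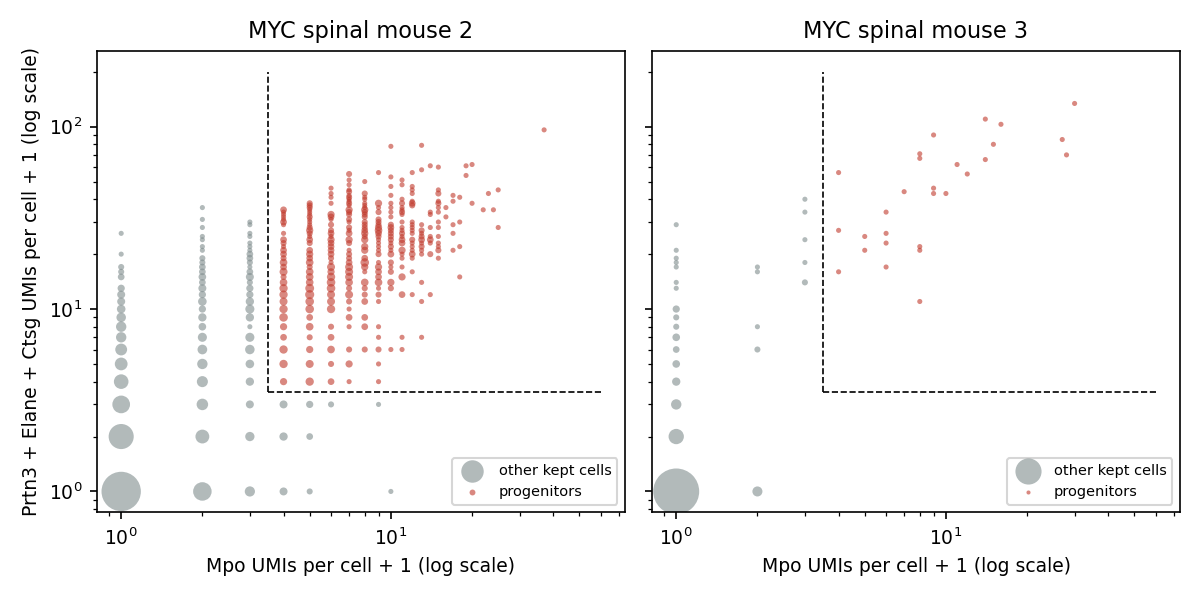
UMIs of Mpo (horizontal axis) against UMIs of Prtn3, Elane and Ctsg together (vertical axis) in each kept cell, both plus 1 on log scales, in the 2 tumors with progenitors. Point area grows with the square root of the number of cells, dashed lines mark the rule, and red points are the 740 and 28 progenitors.

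The 5 genes whose upstream sequence bears on these cells are shown next, because their RNAs mark the progenitors together. Mpo lies on chromosome 11, Prtn3 and Elane are neighbors on chromosome 10, Ctsg lies on chromosome 14 and Ms4a3, a tetraspanning membrane protein typical of granulocyte-monocyte progenitors, on chromosome 19. Each sequence comes from RefSeq (GRCm38.p6, the build called mm10) and reads 5′ to 3′ on the gene's own strand. It covers the 250 bases before the RefSeq start, cut at the first GENCODE exon found within them. Exons further upstream were not looked for. GENCODE places Prtn3 at 79874476 to 79883174, so the Prtn3 window lies inside the annotated gene. Capitals mark matches, on either strand, to GAGGAA (the core bound by PU.1, the myeloid ETS factor encoded by Spi1), TTNNGNAA (C/EBP factors), TGTGGT (RUNX factors) or AACNGNC (MYB). No 2 matches overlapped.
Mpo, chr11:87793534-87793580, plus strand: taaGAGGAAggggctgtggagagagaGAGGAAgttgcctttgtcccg
Prtn3, chr10:79879417-79879613, plus strand: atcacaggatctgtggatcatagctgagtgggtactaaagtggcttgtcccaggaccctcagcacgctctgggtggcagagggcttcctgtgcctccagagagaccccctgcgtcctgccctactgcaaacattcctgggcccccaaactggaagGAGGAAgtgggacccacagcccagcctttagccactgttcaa
Elane, chr10:79886062-79886246, plus strand: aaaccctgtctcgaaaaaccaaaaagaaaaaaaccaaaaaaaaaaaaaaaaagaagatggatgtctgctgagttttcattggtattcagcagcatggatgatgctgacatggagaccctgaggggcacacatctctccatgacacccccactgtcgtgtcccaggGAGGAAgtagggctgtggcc
Ctsg, chr14:56102575-56102824, minus strand: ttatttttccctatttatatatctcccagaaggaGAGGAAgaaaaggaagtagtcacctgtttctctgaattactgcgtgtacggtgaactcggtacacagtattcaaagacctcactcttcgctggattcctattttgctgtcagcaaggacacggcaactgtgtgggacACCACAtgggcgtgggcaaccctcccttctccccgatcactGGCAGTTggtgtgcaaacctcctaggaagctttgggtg
Ms4a3, chr19:11640852-11641101, minus strand: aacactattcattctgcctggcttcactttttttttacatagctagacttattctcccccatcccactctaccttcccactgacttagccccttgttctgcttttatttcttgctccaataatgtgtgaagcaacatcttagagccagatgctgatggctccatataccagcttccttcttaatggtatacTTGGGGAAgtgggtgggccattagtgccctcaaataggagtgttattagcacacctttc

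GAGGAA occurred in the windows of the 4 genes of the rule, 2 times in that of Mpo, and not in that of Ms4a3. Over the same bases of all 32851 RefSeq promoters it is found in 4.51% of windows as long as that of Mpo, 17.6% for Elane, 18.6% for Prtn3 and 23.3% for Ctsg. The C/EBP letters were found only in the Ms4a3 window of these 5, and 36.8% of all windows of that length hold them. The RUNX and MYB letters each matched once, in the Ctsg window, and stand in 14.0% and 27.7% of all windows of that length. These matches are letters in a sequence and say nothing of binding. Prss57 was looked for as well and is named only.

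Ms4a3 and Myb, the markers that the rule did not use, were checked against the label. Ms4a3 was detected in 471 of 740 progenitors of spinal mouse 2 (63.6%) and in 25 of 28 of spinal mouse 3 (89.3%), and in 0 of the 62 and 0 of the 188 T cells. Of the immature neutrophils defined below 11.0% and 20.2% held it in the 2 mice, and of the Ly6c2 monocytes 7.45% and 7.89%. Myb, the transcription factor that keeps hematopoietic progenitors undifferentiated, was detected in 373 of 740 (50.4%) and in 7 of 28, against 4 of 62 and 1 of 188 T cells. Thinned to 1000 UMIs, Myb remained in 35.3% of the progenitors of spinal mouse 2, beside 4.69% of its neutrophils and 5.85% of its monocytes. In spinal mouse 3 it remained in 1 of 28 progenitors, 2 of 173 neutrophils and 1 of 38 monocytes, so there the Myb marker was thin.

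Against all other cells of the same tumor, the genes that stood highest in the progenitors included granule cargo and Myb. An edgeR quasi-likelihood test with tumor as a block and Benjamini-Hochberg adjustment covered 9429 genes besides those of the rule and called 25 genes higher and 149 lower in the progenitors, 1.85% of the genes tested (0.265% higher and 1.58% lower). Without the tumor block edgeR called 0 genes here (0 higher and 0 lower) and 0 against monocytes, and 0 higher and 28 lower against neutrophils, so the counts of calls in all 3 comparisons depend on the pairing within mice. The median log2 fold change over all genes tested was -0.17. The other cells were not alike in the 2 mice, with 1276 of 5009 being immature neutrophils in spinal mouse 2 and 173 of 6712 in spinal mouse 3, and the values per tumor are therefore given beside the fit.

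Ms4a3 measured 747 CPM in progenitors against 75.0 in other cells of spinal mouse 2, and 1576 against 2.80 in spinal mouse 3 (log2 fold change 5.94 ± 0.79, adjusted p = 1.81e-10). Prss57, a serine protease stored in azurophil granules and encoded near Elane, stood at 121 against 11.6 and at 260.4 against 0.766 (5.41 ± 0.77, adjusted p = 4.66e-09). Both genes were higher in each mouse, and by more in spinal mouse 3, where the other cells held almost none. Myb measured 470.3 against 113 in spinal mouse 2 and 137 against 0.421 in spinal mouse 3 (4.25 ± 0.72, adjusted p = 2.56e-06). Nkg7, a cytotoxic granule membrane protein, reached 661 against 103 and 932 against 34.0 (3.49 ± 0.62, adjusted p = 1.01e-05). Cst7, the cystatin that inhibits granule cathepsins, gave 189.5 against 22.8 and 274 against 22.7 (3.10 ± 0.62, adjusted p = 1.90e-04). Its difference was nearly equal in the 2 mice, 2.99 and 3.19 on the log2 scale.

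The other genes named by rank were Plac8 (3.27), a small cysteine-rich protein of myeloid progenitors, Rab44 (3.36), Rasgrp2 (3.16), a guanine exchange factor for Rap, BC035044 (4.00) and Rgcc (2.87). Plac8 was abundant, at 4547 CPM against 1711 in other cells of spinal mouse 2 and 5317 against 110.4 in spinal mouse 3. Gstm1, a glutathione transferase, was also called (2.85 ± 0.59, adjusted p = 4.28e-04), as was the protease inhibitor Serpinb1a, which restrains the same elastase, cathepsin G and proteinase 3 (2.75 ± 0.72, adjusted p = 0.0123). Serpinb1a was 0.38 higher on the log2 scale in spinal mouse 2 and 5.26 in spinal mouse 3.

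Of 9 genes listed as partners of granule storage, 5 were higher and 0 lower against other cells (median log2 fold change 2.75) where 0.265% of all genes were called higher. The list of 8 heme synthesis enzymes, which feed the heme of myeloperoxidase, had 8 genes tested and 0 called by edgeR, 1 at an unadjusted p under 0.05 and 0 by DESeq2, which gave 3 of them an adjusted p. Alas1, its rate-limiting enzyme, measured 79.9 CPM against 14.6 in spinal mouse 2 and 68.5 against 45.7 in spinal mouse 3 (1.51 ± 0.71, adjusted p = 0.459). The genes called lower included 4 of 7 macrophage genes, 4 of 4 MHC class II genes and 2 of 2 tested early B genes, with H2-Aa at -4.67 ± 0.69, adjusted p = 1.71e-08 and Cd74 at -4.51 ± 0.70, adjusted p = 1.45e-07. The genes named by rank were Col1a2, Serpinh1, Mmp14, Pltp, Ccl12, Slc37a2, Meg3, Clec4a3, Ckb and Ctsk. Col1a2, a fibrillar collagen chain, had 0 UMIs in the progenitors of both mice against 12.4 and 193 CPM in other cells. Ctsk, the collagenase of osteoclasts, measured 0 against 6.69 in spinal mouse 2 and 109.6 against 2881 in spinal mouse 3 (-5.25 ± 0.89, adjusted p = 2.69e-06).

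Some UMIs of other lineages were found in the progenitors themselves. The 7 macrophage genes summed to 26.9 CPM in the progenitors of spinal mouse 2 and 343 in those of spinal mouse 3, and to 219 and 2335 in the remaining cells. The MHC class II genes summed to 139 and 452 CPM in the progenitors of the 2 mice, with at least 2 UMIs in 24 of 740 (3.24%) and in 6 of 28 (21.4%), and the macrophage genes had at least 2 UMIs in 3 and in 5 of them. The basophil and mast genes summed to 318 CPM in the progenitors of spinal mouse 2, from 449 UMIs, and to 497 in its other cells. Of the 28 progenitors of spinal mouse 3, 2 held at least 2 UMIs of the complement genes C1qa, C1qb and C1qc, and of the 740 of spinal mouse 2, 4 held at least 2 UMIs of Cd79a and Cd79b. No progenitor of either mouse held 2 UMIs of the T-cell genes Cd3d, Cd3e, Cd3g and Trac. The part of stray RNA or mixed droplets in these values was not tested. Without every progenitor that held such genes or met the neutrophil gate described next, a choice made after the data were seen, 35 genes were higher and 239 lower.

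Immature neutrophils were taken as cells with at least 10 UMIs of the secondary granule genes Ltf, Camp and Ngp that were not progenitors. Spinal mouse 2 held 1276 and spinal mouse 3 held 173. The progenitors differed from them in 1504 genes: 544 were higher and 960 lower of 6320 tested, 23.8% in all (8.61% higher and 15.2% lower). The alarmin genes S100a8 and S100a9 alone reached 204359 and 132809 CPM in the neutrophils of spinal mouse 2, and the levels of all other genes there are shares of what remains. The fit was scaled by TMM factors, which are set on the bulk of genes. Without them the median log2 fold change over all genes moved from -0.05 to 0.59 and the calls became 1393 higher and 452 lower, so directions below are relative to the middle of all genes, while CPM are not.

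Secondary and tertiary granule genes were lower in the progenitors. All 7 tested genes of that list besides those of the gate were called, with a median log2 fold change of -4.89 beside -0.05 for all genes. Lcn2, the siderophore-binding lipocalin, measured 182 CPM in progenitors against 5016 in neutrophils of spinal mouse 2, and 219 against 7035 in spinal mouse 3 (-5.50 ± 0.69, adjusted p = 3.33e-13). Mmp8, neutrophil collagenase, stood at 31.8 against 624 and at 0 against 203 (-5.06 ± 0.50, adjusted p = 7.81e-21). Both were thus far lower in either mouse. Fcnb, the ficolin that appears earliest of these genes, had the smallest difference of the list, at 211 against 339.5 and 151 against 280.3 (-1.38 ± 0.37, adjusted p = 0.00193), and it lost its call without TMM factors. Of 8 mature neutrophil genes 5 were lower, among them Retnlg (-5.56 ± 0.86, adjusted p = 5.92e-09) and the chemokine receptor Cxcr2 (-5.42 ± 0.69, adjusted p = 6.61e-13), which directs exit from the marrow. S100a8 itself differed by -3.98 ± 1.88 and was not called (adjusted p = 0.108), although it was lower in both mice.

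Genes for protein folding in the endoplasmic reticulum were higher than in neutrophils. Of 10 genes, all tested, 8 were higher and 0 lower, with a median of 1.47, and DESeq2 called 5. Of all genes tested there 8.61% were higher. Against monocytes, where 1.9% of all genes were higher, 5 of the 10 were (2 called by DESeq2). Against all other cells edgeR and DESeq2 called 0, with 1 at an unadjusted p under 0.05. Sdf2l1, a cofactor of the chaperone BiP, measured 328 CPM against 31.2 in spinal mouse 2 and 1069 against 118 in spinal mouse 3 (2.68 ± 0.36, adjusted p = 2.59e-11). Pdia4, a disulfide isomerase, gave 144 against 17.8 and 247 against 30.6 (2.38 ± 0.43, adjusted p = 1.14e-06). Hspa5, which encodes BiP, gave 0.90 ± 0.35, adjusted p = 0.0420, the smallest difference of the 8. Xbp1, the transcription factor of the unfolded protein response, was not called (-0.29 ± 0.44, adjusted p = 0.678), nor was the translocon subunit Sec61b (1.01 ± 0.42, adjusted p = 0.0602). Among the granule partners the lectin chaperones Calr (2.36 ± 0.39, adjusted p = 8.44e-08) and Canx (1.33 ± 0.36, adjusted p = 0.00256), which fold myeloperoxidase, were higher, and Serpinb1a was lower (adjusted p = 0.0274, with -1.50 in spinal mouse 2 and -0.38 in spinal mouse 3), a call lost without TMM factors.

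Ribosome biogenesis moved the same way, with 6 of 8 tested genes higher and 0 lower (median 1.67), where 8.61% of all genes were higher. DESeq2 called 3 of the 6 it gave an adjusted p. Against monocytes 2 of 6 were higher, where 1.9% of all genes were. Against other cells edgeR and DESeq2 called 0 of 9, with 0 at an unadjusted p under 0.05. Fbl, the methyltransferase of ribosomal RNA, was 156 against 16.5 CPM in spinal mouse 2 and 260.4 against 54.2 in spinal mouse 3 (2.20 ± 0.42, adjusted p = 3.54e-06). Npm1, the nucleolar chaperone, was 926 against 101 and 1453 against 393 (1.95 ± 0.39, adjusted p = 1.35e-05). Among the 10 genes with the largest differences were Phgdh (3.84), which opens serine synthesis, Srm (2.81), spermidine synthase, Apex1 (2.89), a DNA repair endonuclease, and Fkbp11 (3.41), a prolyl isomerase of the secretory pathway. Dmkn (2.96), Gstm1 (2.87), BC035044, Cst7, Myb and Nkg7 completed that list. At its other end stood Orm1 (-6.49), Stfa1 (-6.05), Ifitm6 (-5.69), AA467197 (-5.53), Stfa2l1 (-5.48; Stfa1 and Stfa2l1 are close relatives whose reads may be split), Fpr2 (-5.43), a formyl peptide receptor, and Crispld2 (-5.40), beside Retnlg, Lcn2 and Cxcr2.

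**Figure D3:**
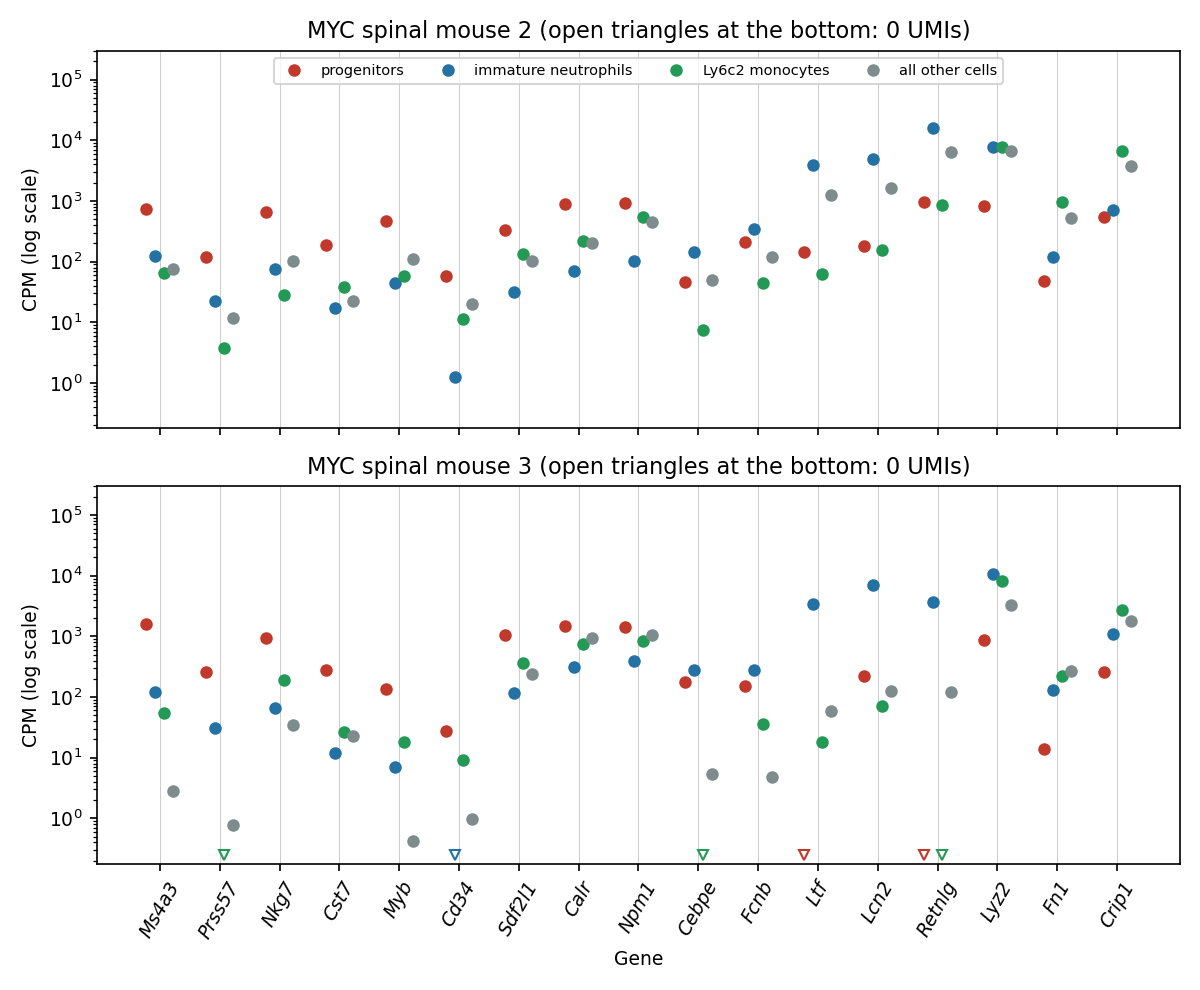
CPM (log scale) of 17 genes in progenitors, immature neutrophils, Ly6c2 monocytes and all other cells of MYC spinal mouse 2 (upper panel) and MYC spinal mouse 3 (lower panel). Each point sums the UMIs of all cells of 1 kind in 1 tumor, all other cells include the neutrophils and monocytes, and open triangles stand for 0 UMIs. Ms4a3, Prss57, Nkg7, Cst7 and Myb have their highest point in the progenitors of both mice, and Ltf, Lcn2 and Retnlg in the neutrophils.

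Monocytes, the other branch, were taken as cells with at least 3 UMIs of Ly6c2 and at least 1 of Ccr2 or F13a1 that were neither progenitors nor immature neutrophils. There were 577 in spinal mouse 2 and 38 in spinal mouse 3. Of 4642 genes tested, 88 were higher and 189 lower in the progenitors, 5.97% in all (1.9% higher and 4.07% lower). The counts moved with the cells taken. Without the highest Scrublet scores, which left out 45 progenitors, they became 252 higher and 363 lower. With at least 2 in place of 3 UMIs in the rule they became 31 higher and 78 lower.

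Of the granule partners 7 of 9 genes were higher and 1 lower. Ms4a3 was 747 CPM against 65.9 in the monocytes of spinal mouse 2 and 115 UMIs against 6 in spinal mouse 3 (3.96 ± 0.30, adjusted p = 7.63e-04). Prss57 differed by 5.41 ± 0.56, adjusted p = 0.00276, Nkg7 by 3.63 ± 0.49 and Srgn, the proteoglycan core that packs granule proteases, by 1.85 ± 0.27, adjusted p = 0.0107. The lower gene was Ctsc, the dipeptidyl peptidase that activates the granule proteases, at 63.6 against 284 and 68.5 against 396 (-2.15 ± 0.28, adjusted p = 0.00616). Against neutrophils Ctsc was not called, with 0.19 in spinal mouse 2 and -1.84 in spinal mouse 3 on the log2 scale.

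Genes of monocyte maturation were lower. Of the 6 tested genes of that lineage besides the gate 4 were lower and 0 higher. Lyz2, lysozyme, measured 838 against 7829.5 in spinal mouse 2 and 863 against 8114 in spinal mouse 3 (-3.17 ± 0.13, adjusted p = 9.32e-05). Lyz2 was likewise lower against neutrophils (-4.01 ± 0.72, adjusted p = 7.69e-07), and its level was lowest in the progenitors of the 3 kinds in both mice. Fn1, fibronectin, gave -4.19 ± 0.29, adjusted p = 7.35e-04, and Ms4a6c -2.24 ± 0.23, adjusted p = 0.00276. Also named by rank were Metrnl (-4.48), Ms4a4c (-3.86), S100a4 (-3.79), Itgb7 (-3.63), Ifi30 (-3.52), a lysosomal thiol reductase, Cd302 (-3.51), Ctsk (-4.37) and Crip1 (-3.45). Crip1 measured 547 CPM in progenitors against 6598 in monocytes of spinal mouse 2, and 260.4 against 2735 in spinal mouse 3. On the higher side BC018473 (3.41), Mgst2 (3.06) and S100a8 (2.95) were named by rank. S100a8 also stood at 4826 CPM in the T cells of spinal mouse 2, which should lack it, beside 4328 in its monocytes and 13072 in its progenitors. The T-cell gate left out progenitors but not cells that met the neutrophil or monocyte gate. Of the 293 S100a8 UMIs of those T cells, 96 lay in 1 cell.

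**Figure D4:**
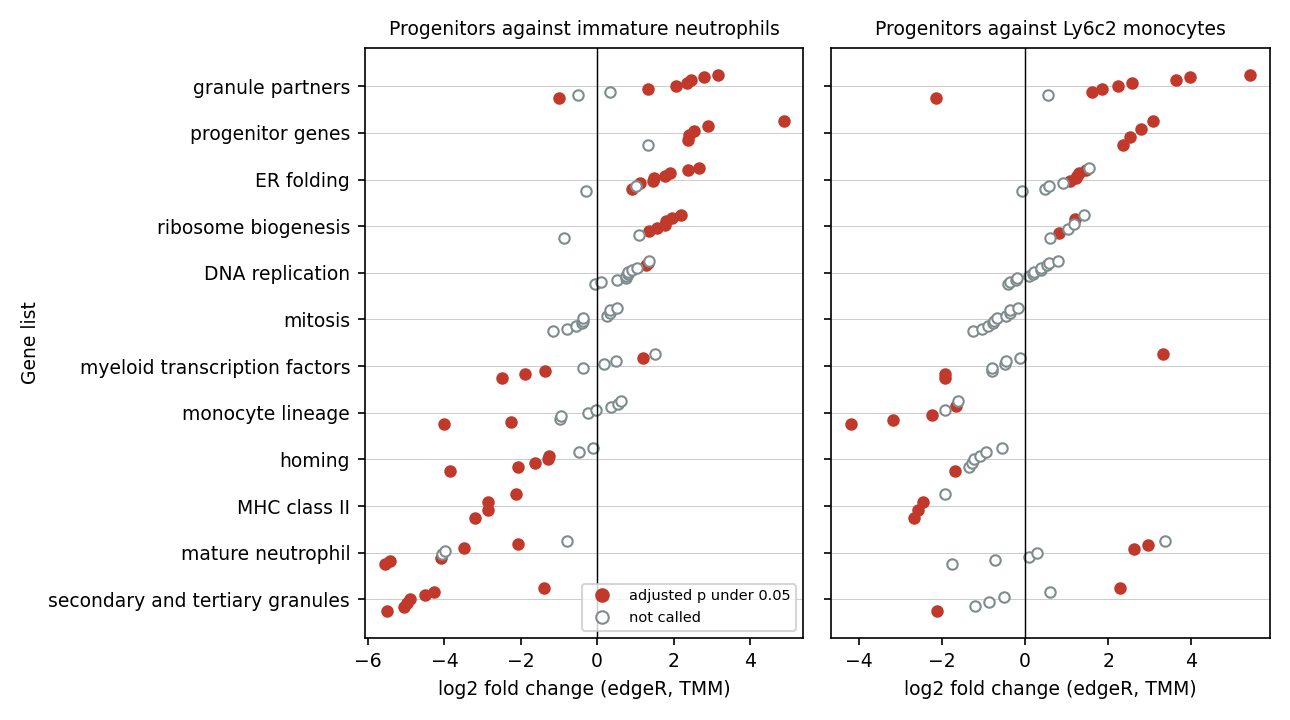
Log2 fold changes of single genes in 12 gene lists, progenitors against immature neutrophils (left) and against Ly6c2 monocytes (right), from the edgeR fit over both tumors. Each point is 1 tested gene, red where its adjusted p is under 0.05, and genes that defined the cells are left out. In the neutrophil comparison the 8 folding and 6 ribosome genes in red lie to the right of 0, and the 7 secondary and tertiary granule genes to the left.

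Of the 10 genes listed for early progenitors, edgeR called 5 of 6 tested higher against neutrophils and 4 of 4 against monocytes. Of all genes tested 8.61% and 1.9% were called higher in these comparisons. DESeq2 gave an adjusted p for 1 listed gene in each, Myb, and called it. Against all other cells 1 of 7 was called, Myb, where 0.265% of all genes were called higher. Cd34, the sialomucin of early progenitors, measured 58.0 CPM in the progenitors of spinal mouse 2, 1.27 in its neutrophils and 11.2 in its monocytes (4.88 ± 0.86, adjusted p = 4.54e-07 against neutrophils; 2.37 ± 0.52, adjusted p = 0.0429 against monocytes). In the progenitors of spinal mouse 3 Cd34 rested on 2 UMIs, Kit on 2 and Sox4 on 3. Kit, the receptor for stem cell factor, was higher against both kinds (2.41 ± 0.62, adjusted p = 0.00109; 2.79 ± 0.63, adjusted p = 0.0462), and so was Sox4 (2.39 ± 0.60, adjusted p = 8.18e-04; 2.52 ± 0.57, adjusted p = 0.0446). Myb gave 2.92 ± 0.43 and 3.09 ± 0.30. Flt3, the receptor of multipotent and dendritic progenitors, stood at 7.07 CPM in spinal mouse 2 against 16.3 in other cells (-0.91 ± 0.98, not called).

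Cebpe, the factor of the secondary granule stage, lay between the levels of the branches, and Irf8 did so in the opposite order. Cebpe measured 46.7 CPM in progenitors, 146 in neutrophils and 7.46 in monocytes of spinal mouse 2, and 178, 278 and 0 in spinal mouse 3. It was called lower against neutrophils (-1.89 ± 0.39, adjusted p = 2.10e-05) and higher against monocytes (3.33 ± 0.68, adjusted p = 0.0330). Irf8, the factor that favors the monocyte branch, stood at 131, 33.7 and 258 in spinal mouse 2 and 123, 40.0 and 179.9 in spinal mouse 3. It was called higher against neutrophils (1.21 ± 0.43, adjusted p = 0.0246) and was not called against monocytes (-0.79 ± 0.27, adjusted p = 0.136). Cebpb, which serves emergency granulopoiesis and monocytes, was lower against both (-2.50 ± 0.47, adjusted p = 3.52e-06; -1.92 ± 0.34, adjusted p = 0.0211), and Spi1, which encodes PU.1, was lower against neutrophils (-1.36 ± 0.36, adjusted p = 0.00154), a call lost without TMM factors. Klf4 was called lower against monocytes (-1.92 ± 0.28, adjusted p = 0.0108) and was not called against neutrophils (-0.37 ± 0.42, adjusted p = 0.570). Cebpa, the factor that specifies these progenitors, was at 33.2 and 27.4 CPM and was called in neither comparison (1.52 ± 0.64, adjusted p = 0.0677; -0.46 ± 0.46, adjusted p = 0.647), though without TMM factors it was called higher against neutrophils. Gfi1, a repressor of the monocyte program, was listed only in spinal mouse 2, with 28 UMIs in its progenitors, 8 in its neutrophils and 0 in its monocytes.

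Of 7 adhesion and homing genes edgeR called 5 lower and 0 higher against neutrophils, where 15.2% of all genes were called lower. DESeq2 called 3 of the 6 with an adjusted p. The 5 genes called by edgeR were led by the integrin chain Itgam (-3.84 ± 0.49, adjusted p = 6.42e-13), followed by Itgal (-2.08 ± 0.48, adjusted p = 2.65e-04) and the marrow retention receptor Cxcr4 (-1.62 ± 0.45, adjusted p = 0.00265). Cxcr4 measured 170.4 CPM in the progenitors of spinal mouse 2, 313 in its neutrophils and 569.7 in its monocytes. The neutrophil call of Cxcr4 was lost without TMM factors, which left 2 of the 7 genes called lower. In spinal mouse 3 the progenitors held 0 Cxcr4 UMIs, where 3 counts would be 41.1 CPM. Against monocytes 1 of 7 was lower, again Cxcr4 (-1.68 ± 0.31, adjusted p = 0.0228), where 4.07% of all genes were called lower. DESeq2 called 0 of the 3 with an adjusted p. Against all other cells both tools called 0 of the 7, with 2 at an unadjusted p under 0.05. Of 7 cytokine receptor genes edgeR called 0 in each of the 3 comparisons, with 1, 3 and 2 at an unadjusted p under 0.05, and DESeq2 called 0 of the 5, 4 and 2 it gave an adjusted p. Tnfrsf1a, a receptor for TNF, gave -1.16 ± 0.46, adjusted p = 0.0511 against neutrophils, and Il6ra, the receptor for IL-6, -1.94 ± 0.48, adjusted p = 0.0561 against monocytes, where it was called without TMM factors.

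Cell division genes were set beside all genes tested, of which 1.85%, 23.8% and 5.97% were called against other cells, neutrophils and monocytes. Of 10 mitosis genes edgeR called 0 in each comparison, with 0, 1 and 3 at an unadjusted p under 0.05 and 0, 1 and 0 by DESeq2 against other cells, neutrophils and monocytes. Of 12 DNA replication genes Mcm6 (1.29 ± 0.44, adjusted p = 0.0180) and Dut (1.33 ± 0.37, adjusted p = 0.00265) were higher against neutrophils, where 8.61% of all genes were. There DESeq2 called 0 of the 10 with an adjusted p and edgeR without TMM factors called 10 of 12. Mki67, a marker of cycling cells, was detected at 1000 UMIs per cell in 67 of 658 progenitors of spinal mouse 2 (10.2%, exact interval 7.98 to 12.8), in 8.5% of its neutrophils and in 23.2% of its monocytes. The unthinned shares were 16.4%, 10.3% and 27.4%. Of its T cells 1 of 21 held it at that depth. In spinal mouse 3 Mki67 was found in 0 of 28 progenitors when thinned and in 3 of 28 unthinned. A replication gene was found at 1000 UMIs in 68.2% of the progenitors of spinal mouse 2 (exact interval 64.5 to 71.8), in 61.5% of its monocytes (56.6 to 66.2), in 31.4% of its neutrophils and in 6 of 21 of its T cells. The progenitor and monocyte intervals overlap. In spinal mouse 3 the counts were 20 of 28 progenitors, 18 of 38 monocytes, 62 of 173 neutrophils and 95 of 188 T cells. A mitosis gene was found at that depth in 79.8% of the progenitors of spinal mouse 2 (exact interval 76.5 to 82.8). Its monocytes stood higher, at 94.6% (92.0 to 96.6), as did its neutrophils, at 91.6% (89.3 to 93.6). Thinning left out the cells under 1000 UMIs, which were 82 of its 740 progenitors, 167 of its 577 monocytes and 594 of its 1276 neutrophils. Unthinned, a mitosis gene was found in 87.3% of its progenitors, 88.7% of its monocytes and 86.2% of its neutrophils. In spinal mouse 3 a mitosis gene was found in 25 of 28 progenitors, 31 of 38 monocytes and 136 of 173 neutrophils.

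Some progenitors also carried secondary granule RNA. The progenitors were thinned to 1000 UMIs and divided by their UMIs of Ltf, Camp and Ngp, so these 3 genes describe the division and other genes are given with exact Poisson intervals, which cover counting error only. Spinal mouse 2 had 472 progenitors with 0 to 1, 116 with 2 to 4 and 70 with at least 5 such UMIs. Spinal mouse 3 had 20, 1 and 7, too few to divide. Camp was also found in 20 of the 62 T cells of spinal mouse 2, at 824 CPM. The 659 progenitors with fewer than 10 UMIs of the 3 genes stood at 542 CPM. Of the 50 Camp UMIs of the T cells, 19 lay in 1 cell, which thus met the neutrophil gate as well. The split between the first 2 bins therefore lies near a level seen in cells that should lack the gene, a level raised by that cell. The genes of the rule chose these cells and are given as a description: Elane was 5426 (5218 to 5640.1) CPM in the lowest bin and 6857 (6257 to 7499) in the highest, and Ctsg 1655 (1541 to 1775) and 1100.0 (868 to 1375). Nothing is read from Mpo, whose low cells the rule had removed.

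Myb was as high in the middle bin as in the lowest and lower in the highest, at 515 (452 to 584), 517 (395 to 666) and 171 (88.6 to 299). Fcnb went from 104 (76.8 to 137) through 216 (139 to 318) to 1400.0 (1137 to 1706), where the intervals of the lowest and highest bins are far apart. Cebpe went from 31.8 (17.8 to 52.4) to 114 (49.3 to 225), where the intervals overlap. Cells with the most secondary granule RNA thus also held more Fcnb and less Myb. Irf8 and F13a1, the coagulation factor chain of monocytes, had their lowest values there, at 28.6 (3.46 to 103) and 42.9 (8.84 to 125) against 136 (104 to 173) and 195 (157 to 239) in the lowest bin. S100a8 was 4540.3 (4350.0 to 4737) in the lowest bin, close to the 4826 of the T cells, and 76757 (74718 to 78837) in the highest.

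**Figure D5:**
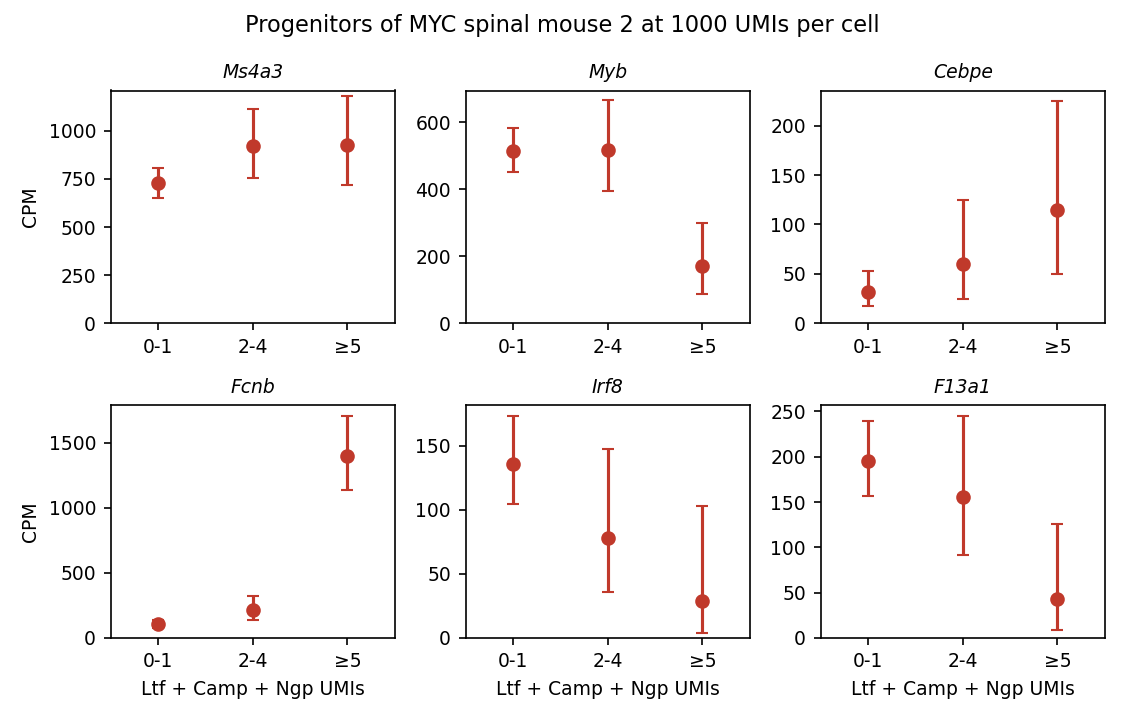
CPM of 6 genes in the progenitors of MYC spinal mouse 2, thinned to 1000 UMIs per cell, by their UMIs of Ltf, Camp and Ngp (472, 116 and 70 cells). Bars are exact 95% Poisson intervals of the summed counts. Myb is lowest and Fcnb highest in the last bin.

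Of the 740 progenitors of spinal mouse 2, 81 met the neutrophil gate as well, and 6 of 28 did in spinal mouse 3. Those 81 cells had a median of 1356 UMIs against 1797 in the other 659, and 17 of them were among the highest Scrublet scores against 28 of the 659. Whether some were mixed droplets was not tested further. Without them and the few progenitors with genes of other lineages, 555 genes were higher and 965 lower against neutrophils, beside the 544 and 960 given above, and 510 and 911 of those calls were shared. Against monocytes the calls went to 237 and 412.

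Ly6c2, a surface antigen of monocytes and of many granulocyte-monocyte progenitors, was found at 3 or more UMIs in 414 of 740 progenitors of spinal mouse 2 and in 12 of 28 of spinal mouse 3. Of the former, 142 also carried Ccr2 or F13a1. At 1000 UMIs, 151 progenitors of spinal mouse 2 held 0, 271 held 1 to 2 and 236 held at least 3 Ly6c2 UMIs. Cd34 was 132 (80.9 to 205) CPM in the first of these bins, 25.8 (10.4 to 53.2) in the next and 21.2 (6.88 to 49.4) in the last. F13a1 ran in the opposite order, at 113 (65.6 to 180.3), 159 (115 to 214) and 225 (168 to 294). Irf8 was 79.5 (41.1 to 139) in the first and 136 (92.7 to 191) in the last, with overlapping intervals. In the fits over both mice Ly6c2 was higher than in all other cells (2.62 ± 0.77, adjusted p = 0.0408), by 0.27 in spinal mouse 2 and 5.01 in spinal mouse 3 on the log2 scale.

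The progenitors of the 2 mice are set side by side, and with 1 library each their difference has no test. Ms4a3 was 747 (702 to 793) CPM in spinal mouse 2 and 1576 (1301 to 1892) in spinal mouse 3, with exact Poisson intervals. Myb was 470.3 (435 to 507) and 137 (65.7 to 252), and these intervals do not meet. Cebpe was 46.7 and 178, and Serpinb1a 145 (126 to 166) and 562 (403 to 762). Of the 10 folding genes 9 were higher in the progenitors of spinal mouse 3, with Sdf2l1 at 328 (299 to 359) and 1069 (845 to 1334), but 9 of 10 were also higher in the other cells of that mouse. Mouse, tumor and library cannot be told apart in these values.

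Spinal mouse 2 also held RNA of basophil, eosinophil and early B genes that had fewer UMIs or were unlisted in the other 5 tumors. Across its kept cells Mcpt8 and Prss34, proteases of basophils, gave 1555 and 1190 UMIs, Prg2 of eosinophils 250, and Vpreb1 and Igll1, the surrogate light chain of early B cells, 264 and 187. Of the 740 progenitors, 6 held at least 5 UMIs of Mcpt8 and Prss34, against 61 of the other cells. Of 3 megakaryocyte genes Pf4 ran the other way, with 31 UMIs in spinal mouse 2, 943 in spinal mouse 3, 11 in MYC spinal mouse 1 and 1433, 1204 and 15024 in eRT mice 1, 2 and 3. In eRT mouse 3, 2760 of the 4020 kept cells held Pf4, and 3647 held at least 2 UMIs of the 7 macrophage genes. Which kind of cell held Pf4 was not tested, so its UMIs are no count of megakaryocyte cells. Itga2b gave 59 UMIs in spinal mouse 2, 368 in spinal mouse 3, 13 in MYC spinal mouse 1 and 63, 19 and 390 in the eRT mice. Gp9 gave 6 in spinal mouse 2 and 4 in eRT mouse 3 and was unlisted in the other tumors. Mcpt8 stood at 182 CPM in progenitors, 71.2 in neutrophils, 11.2 in monocytes and 256 in all other cells of spinal mouse 2, and at 6 UMIs in the progenitors of spinal mouse 3. It was higher against monocytes (4.20 ± 0.46, adjusted p = 0.00332) and against neutrophils (1.24 ± 0.45, adjusted p = 0.0303) and was not called against all other cells (1.98 ± 0.85, adjusted p = 0.357). Those 6 cells held 211 of the 257 Mcpt8 UMIs of the 740 progenitors, with 2 UMIs of Elane, and the other 734 stood at 32.8 CPM. Without them, an alternative chosen after the data were seen, Mcpt8 was called against neither neutrophils (-0.79 ± 0.54, adjusted p = 0.290) nor monocytes (2.04 ± 0.61, adjusted p = 0.102), and it changed sign against neutrophils. With them kept, the neutrophil call was also lost by DESeq2 (adjusted p = 0.426) and by edgeR with every gene of at least 1 UMI tested (adjusted p = 0.0792). The monocyte call stayed in both. Spinal mouse 3 held 0 such cells and gave 4.63 against neutrophils and 4.51 against monocytes on the log2 scale, from its 6 UMIs. Of the erythroid genes Hba-a1 and Hbb-bs, the globin genes, are not listed in the table of spinal mouse 2. Klf1, Gata1 and Car1 gave 9, 8 and 22 UMIs there, and Gata1 and Car1 are listed in no other tumor. In eRT mouse 2 Hba-a1 and Hbb-bs gave 4968 and 11972 UMIs. Red cells had been lysed in the study's preparation, and how far this bears on these counts was not tested.

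Genes beside the protease loci were looked at because Prtn3 and Elane lie next to each other. On chromosome 10, 15 other coding genes start within 100 kb of Elane (79886247 to 79888215, plus strand, mm10), of which 11 were listed in both tumors. Prss57 (79781474 to 79790961) was the only one of the 9 tested that was called against other cells, apart from Prtn3, which the rule used. Against neutrophils Wdr18, an assembly factor of ribosomes (2.66 ± 0.64, adjusted p = 4.53e-04), and the splicing repressor Ptbp1 (adjusted p = 0.0334) were higher, and R3hdm4 (-2.83 ± 0.44, adjusted p = 6.60e-09) and the transcription factor Arid3a (-1.77 ± 0.54, adjusted p = 0.00763) lower. Med16, between Elane and R3hdm4, was not called (0.15 ± 0.66, adjusted p = 0.898). On chromosome 14, of 9 coding genes within 100 kb of Ctsg (56099881 to 56102574, minus strand) only Mcpt8 was listed in both tumors.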

How the data were processed

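Live cells of 6 tumors, 1 per mouse, were profiled by the 10x Chromium 3′ v2 method. According to the methods and the submitters' processing notes, tumors were dissociated with Accutase, red cells were lysed, viable single cells were sorted, and reads were aligned to mm10 and counted with Cell Ranger 2.0.2. The deposited tables hold the authors' raw UMI counts per gene and cell, with genes in at least 3 cells, and no normalization. An unlisted gene was therefore present in at most 2 cells.

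From these counts 22163 of 22681 cells were kept (200 or more genes, no more than 25% mitochondrial UMIs). The tables held between 3841706 and 26184224 kept UMIs per tumor. The progenitors summed to 1414000 UMIs in spinal mouse 2 and 72973 in spinal mouse 3, whose values are therefore less precise. UMIs were summed per tumor and cell kind, kinds of at least 10 cells were used, and progenitors were compared with other cells, immature neutrophils and Ly6c2 monocytes by edgeR 4.0.16 (R 4.3.3) with TMM factors, tumor as a block, a quasi-likelihood test and Benjamini-Hochberg adjustment over all genes tested, called at an adjusted p under 0.05. Genes that defined the cells compared were not tested. Only MYC spinal mice 2 and 3 held progenitors, so both kinds in a pair came from the same animal and the replicate block follows the animal. Log2 fold changes are TMM-scaled and given ± SE, whereas levels in CPM divide by the summed UMIs alone. Where a kind holds 0 UMIs the fitted value depends on the prior count and is no bound. Kinds gated by genes differ in those genes by construction. The code was tested on simulated counts. Alternatives were DESeq2 1.42.0, no TMM factors, every gene with at least 1 UMI, no block, other cell filters and rules, and leaving out tumors.

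The genes named were the 10 in each direction with the largest log2 fold change among those called, with an average log2 level of 5 or more and the same direction in both tumors, beside the members of 24 gene lists. A gene that this rule names is not reported here. The cells, lists and genes were chosen with earlier results of these data known. Upstream sequences were read from RefSeq promoters of GRCm38.p6, 5 of the 6 looked for being found, and gene positions from GENCODE on the same build. Cells thinned to 1000 UMIs were drawn once. Each tumor gave 1 library.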

Additional observations from a re-analysis of the deposited data

Results flagged for a closer look

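The progenitor markers Myb and Prtn3 also gave a few UMIs in tumors that hold no progenitors and enter no fit. Myb gave 7 UMIs in MYC spinal mouse 1 and 16 in eRT mouse 2, and Prtn3 gave 6 in eRT mouse 1, each above the 3 counts that a count of 0 allows. In eRT mouse 3 Prtn3 gave 3 UMIs. Mpo is not listed in any of these tumors.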

How the results depend on the processing

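The main limit is that 2 tumors hold progenitors and spinal mouse 2 supplies 96.4% of them. The fits pair kinds within a tumor, and without the replicate block edgeR called 0 genes higher and 0 lower against other cells, 0 and 28 against neutrophils, and 0 and 0 against monocytes, where the block gave 25 and 149, 544 and 960, and 88 and 189. No paired analysis was possible because the shares of the 2 subtypes come from different mice. The share difference ranged from -6.64 to -0.21 points when 1 tumor was left out and was -9.14 with the stricter cell filter (500 genes or more, no more than 10% mitochondrial), where the smallest p that these numbers of tumors allow is 0.1 or more and p therefore says nothing of stability. Left with 1 tumor, the fits give values with no test, and the naming rule, which asked for the same direction in both tumors, fixes the sign of the genes named by rank. The fit between the subtypes was not run, since the eRT tumors held 0 progenitors.

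Without TMM factors the calls were 51 higher against other cells, 1393 higher and 452 lower against neutrophils, and 147 and 364 against monocytes. DESeq2 gave 16 and 69, 134 and 380, and 32 and 83. With every gene of at least 1 UMI tested, 240 were higher against neutrophils, and 199 and 327 against monocytes. A rule of at least 5 UMIs gave 16 higher against other cells and 55 higher against monocytes, and a rule of at least 2 UMIs 31 and 78 against monocytes. The stricter cell filter gave 196 and 316 against monocytes, and leaving out the highest Scrublet scores 252 and 363. Without progenitors that held genes of another kind, an alternative chosen after seeing the data, 239 were lower against other cells, and 237 and 412 differed from monocytes. Among hematopoietic cells only, 42 were higher and 233 lower. The cause of these shifts was not tested. Without the 6 progenitors that held basophil genes, also chosen after seeing the data, Mcpt8 turned to -0.79 against neutrophils (adjusted p = 0.290 by edgeR), the 1 sign change of a called named gene under alternatives that kept both tumors. Requiring at least 20 cells of both kinds changed no count.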
